A study of Mus musculus with 16 samples.

Results

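Keratins and keratin-associated proteins were followed in an RNA immunoprecipitation experiment read on arrays (RIP-chip) in HL-1, a cell line derived from atrial heart muscle of the mouse. They are the rows of the authors' deposited table whose gene symbol is single and starts with Krt followed by a digit, or with Krtap. The rule takes symbols only and no measured value. It found 90 rows for 89 genes, out of 35556 rows and 20193 distinct single symbols, with 48 rows of numbered keratins and 42 rows of keratin-associated proteins (KAPs). HL-1 cells received a scrambled siRNA (siScr) or the Airn siRNA named siAirn-001.1, each at 10 nM. RNA was then precipitated with an antibody against Igf2bp2 or with control IgG. This gave 4 groups of 4 biological replicates, 16 arrays in all, and every group came from the same cell line in norepinephrine-supplemented Claycomb medium. Airn is a long non-coding RNA antisense to Igf2r, and the series asked what its silencing does to the RNA held by Igf2bp2.

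Keratins are intermediate filament proteins of epithelia. A filament forms from pairs of an acidic type I and a basic type II chain, so that cells make keratins in partner sets: Krt8 with Krt18 in simple epithelium, Krt5 with Krt14 in the basal epidermis, Krt1 with Krt10 above it, and separate sets in the hair follicle. KAPs form the matrix that binds hair keratin filaments to each other, partly through cysteine cross-links. Heart muscle cells rely on another intermediate filament, desmin. Igf2bp2 binds mRNAs and influences how stable they are, where they lie and how well they are translated.

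Values are log2 differences, anti-Igf2bp2 minus IgG, within 1 siRNA treatment, so that a value below 0 means less signal in the Igf2bp2 precipitate. Such a difference does not give the level of an RNA in the cells, and whether HL-1 cells make a given keratin was not measured here. The errors given after ± are standard errors (SE), which were worked back from each deposited difference and its p. A row is called at an adjusted p under 0.05. No values of individual arrays entered the analysis. The median over all rows was -0.10 in scrambled-siRNA cells and -0.06 in Airn-siRNA cells. Of 11 measured atrial cardiomyocyte markers, 11 lay above 0 with each siRNA, and 7 were called higher with the scrambled siRNA per the authors' deposited table. Such values are common in the whole series, where 20.4% of rows were called higher with the scrambled siRNA. Only 53.8% of rows lay below 0 with that siRNA and 52.5% with the Airn siRNA. The marker list was chosen with earlier results of these data known.

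With the scrambled siRNA, keratin and KAP transcripts were lower in the Igf2bp2 precipitates or not called, and none was called higher. The authors' deposited table called 28 of the 90 rows lower and 0 higher, while it called 16.8% of all rows lower, 20.4% higher and so 37.3% in either direction. At an unadjusted p under 0.05 there were 39 members lower and 0 higher, against 24.9% and 26.9% of all rows. Below 0 lay 80 of 90 rows, against 53.8% of all rows. The median of the 90 rows was -0.48, and they ran from -1.29 for Krt25 to 0.66 for a row of Krtap4-7. Hair-follicle keratins had the lowest median of the 4 classes, -0.66, followed by the other epithelial keratins at -0.43, the simple-epithelial keratins at -0.35 and the KAPs at -0.33. The recovered SE of a single member had a median of 0.24. Differences between the classes were not tested.

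**Figure D1:**
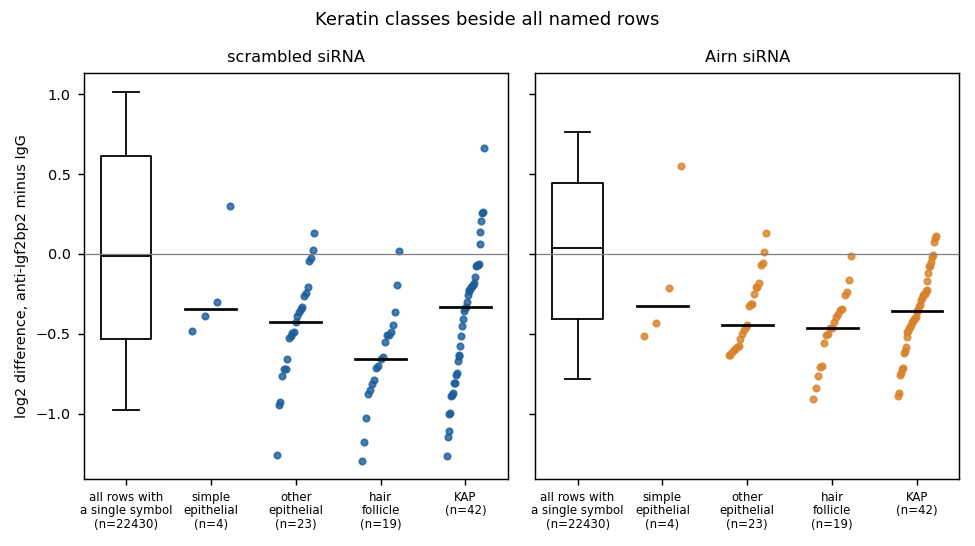
Each point is a keratin or KAP row in its class, with a black line at the class median. The y axis is the log2 difference, anti-Igf2bp2 minus IgG, with the scrambled (left) or the Airn siRNA (right). The box shows the quartiles, and its whiskers the 5th and 95th percentiles, of 22430 rows with a single symbol. Most points lie below 0, and with the Airn siRNA Krt18, at 0.55, is the highest member.

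Krt7, Krt8, Krt18 and Krt19, the keratins of simple epithelium, were examined first. None of them was called with the scrambled siRNA per the authors' deposited table, and none had an unadjusted p under 0.05 there. Krt18 stood apart from the other three, on the side enriched with Igf2bp2. Its value per the authors' deposited table was 0.30 ± 0.18 with the scrambled siRNA (adjusted p = 0.182, 95% interval -0.09 to 0.69). With the Airn siRNA Krt18 stood at 0.55 ± 0.18 per the authors' deposited table (adjusted p = 0.0859, interval 0.16 to 0.94). It was thus not called with either siRNA. Averaged over both siRNAs, Krt18 was called higher, at 0.43 ± 0.13 (adjusted p = 0.0131 in the test recovered from the authors' deposited table), the only member called higher in the average. Such a call is common, since 29.2% of all rows were called higher in the average. By its average, Krt18 stood at the 66.96th percentile of rows with a single symbol.

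Krt8, the filament partner of Krt18, had a value below 0 with both siRNAs. The authors' deposited table gave -0.48 ± 0.38 with the scrambled siRNA (adjusted p = 0.305) and -0.21 with the Airn siRNA (adjusted p = 0.679). This was the least precise row of all members, and its interval with the scrambled siRNA ran from -1.30 to 0.33, which overlaps that of Krt18. Krt7, a keratin of ducts and glandular epithelium, stood at -0.30 ± 0.27 and -0.51 ± 0.27 per the authors' deposited table (adjusted p = 0.358 and 0.185). Krt19, the smallest keratin and a marker of ductal epithelium, stood at -0.39 ± 0.24 and -0.43 ± 0.24 per the authors' deposited table (adjusted p = 0.187 and 0.201). In the average Krt19 was called lower at -0.41 ± 0.17 (adjusted p = 0.0474 in the test recovered from the authors' deposited table), a call that ended when comparisons were centred on their medians. Krt7 (-0.41, adjusted p = 0.0758) and Krt8 (-0.35, adjusted p = 0.272) were not called in the average recovered from the authors' deposited table.

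The other epithelial and the hair-follicle keratins together gave 42 rows. These are not all keratins of skin and hair, since Krt4, Krt13 and Krt76 of the mouth are among them. Krt20 (-0.49 and -0.31 with the scrambled and the Airn siRNA) was also counted there. Krt7, Krt8 and Krt19 lay within the range of the 42, and Krt18 lay above it with both siRNAs. The highest of the 42 per the authors' deposited table was Krt79 at 0.13 with the scrambled siRNA and Krt5 at 0.13 with the Airn siRNA. Of these 42 rows, 15 were called lower with the scrambled siRNA (35.7%, against 16.8% of all rows) and 0 higher per the authors' deposited table. Their median was -0.51. The intervals of Krt18 overlap those of Krt79 and Krt5, and the difference between the simple-epithelial keratins and the others was not tested. Among all rows with a single symbol, Krt18 stood at the 59.6th percentile with the scrambled siRNA and at the 83.2nd with the Airn siRNA. Krt7, Krt8 and Krt19 stood between the 17.7th and the 38.4th percentile.

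**Figure D2:**
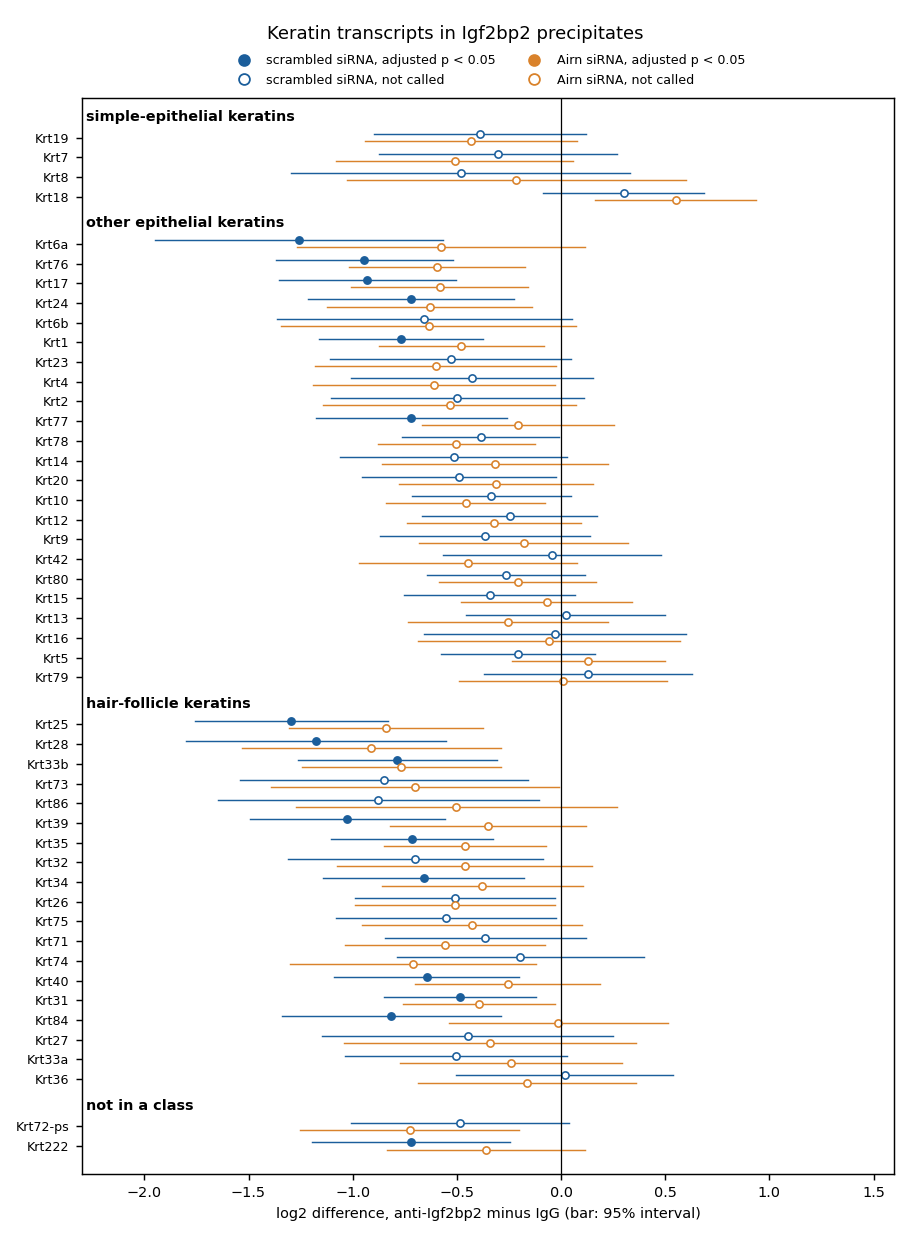
The 48 keratin rows by class, sorted within a class by the average over both siRNAs. The x axis is the log2 difference, anti-Igf2bp2 minus IgG,, with 95% intervals from the recovered SE. Filled points were called at an adjusted p under 0.05. Filled points occur only below 0 and only with the scrambled siRNA (16 of 48 rows), and Krt18 is the highest row with each siRNA.

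Among the other 23 epithelial keratins, Krt6a, Krt76 and Krt17 were the lowest, and the basal pair Krt5 and Krt14 was not called. The authors' deposited table called 6 of the 23 lower (26.1%, against 16.8% of all rows) and none higher with the scrambled siRNA. Krt6a, a type II keratin of the hair companion layer that is induced by wounding, was the lowest at -1.26 ± 0.33 (2.39-fold lower, adjusted p = 0.0147) per the authors' deposited table. Krt76, a keratin of the hard palate and other oral epithelium, followed at -0.94 ± 0.20 (adjusted p = 0.00897) per the authors' deposited table. Krt17, a stress keratin of skin appendages, stood at -0.93 ± 0.20 (adjusted p = 0.00938) per the authors' deposited table. The suprabasal Krt1 (-0.77, adjusted p = 0.0122), Krt24 (-0.72, adjusted p = 0.0287) and Krt77 (-0.72, adjusted p = 0.0233) were the other members called lower per the authors' deposited table. Krt5, the type II keratin of basal cells, stood at -0.21 and 0.13 with the scrambled and the Airn siRNA per the authors' deposited table, on either side of 0. Its partner Krt14 stood at -0.52 and -0.32 per the authors' deposited table. Krt79, a keratin of the upper hair follicle and its ducts, had the highest average of this class at 0.07 ± 0.17 and was not called.

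Hair-follicle keratins had the largest share of calls of the 4 classes per the authors' deposited table. With the scrambled siRNA 9 of 19 were lower (47.4%, against 16.8% of all rows) and none higher. Both lowest members build the inner root sheath, the sleeve that moulds the growing hair. Krt25 stood at -1.29 ± 0.22 (2.45-fold lower, adjusted p = 0.00492) and Krt28 at -1.18 ± 0.29 (2.26-fold lower, adjusted p = 0.0133) per the authors' deposited table. Krt39, a type I hair keratin, was at -1.03 ± 0.22 (adjusted p = 0.00939) per the authors' deposited table. Krt84 (-0.82), Krt33b (-0.79), Krt35 (-0.72), Krt34 (-0.66), Krt40 (-0.65) and Krt31 (-0.49) were the other hair keratins called lower per the authors' deposited table. Krt73, of the inner root sheath, fell just short at -0.85 (adjusted p = 0.0507) per the authors' deposited table. The highest of the class was Krt36, a hair-type keratin, at 0.02 with the scrambled and -0.16 with the Airn siRNA per the authors' deposited table. All 19 rows were below 0 with the Airn siRNA. Outside the classes, Krt222 was called lower with the scrambled siRNA (-0.72, adjusted p = 0.0259) and Krt72-ps (a synonym of the current Krt72) was not (-0.49, adjusted p = 0.12) per the authors' deposited table.

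The values of filament partners were not always close, but with the scrambled siRNA the intervals of both partners overlapped in each of the 6 pairs examined. For Krt6a the interval ran from -1.95 to -0.57, and for Krt16 from -0.66 to 0.60. The authors' deposited table gave -0.77 for Krt1 and -0.33 for its partner Krt10 with the scrambled siRNA. For Krt6a and Krt16, both induced in wounded skin, it gave -1.26 and -0.03 with the scrambled siRNA and -0.58 and -0.06 with the Airn siRNA per the authors' deposited table. Krt4 and Krt13, partners in the lining of the mouth and oesophagus, stood at -0.43 and 0.02 with the scrambled siRNA per the authors' deposited table. Krt7 and Krt19 (-0.30 and -0.39) had the closest values of the 6 pairs examined, and Krt6a and Krt16 the most distant, with the scrambled siRNA per the authors' deposited table. This order depends on the choice of pairs, since each type II chain was set beside a single type I chain. Krt17, another type I keratin, was not set beside Krt6a and stood at -0.93 with the scrambled and -0.58 with the Airn siRNA. In 4 of the 6 pairs, those of Krt1, Krt4, Krt6a and Krt8, the type II chain had the lower value with both siRNAs. Krt5 had a higher value than Krt14 with both siRNAs per the authors' deposited table. The difference within a pair was not tested, because arrays were shared by both rows and their joint error is not in the table.

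KAPs were called lower in 12 of 42 rows (28.6%, against 16.8% of all rows) and higher in none with the scrambled siRNA per the authors' deposited table. The lowest were Krtap4-16 at -1.26 ± 0.34 (adjusted p = 0.0163) and Krtap4-1 at -1.15 ± 0.32 (2.22-fold lower, adjusted p = 0.0173) per the authors' deposited table, both of the cysteine-rich KAP4 family. Krtap14 was at -1.11 ± 0.22 (adjusted p = 0.00746) per the authors' deposited table. Krtap6-1, of a glycine- and tyrosine-rich family, was at -1.01 ± 0.33 (2.01-fold lower, adjusted p = 0.0292) per the authors' deposited table. Krtap15 (-0.996), Krtap10-4 (-0.89), Krtap8-2 (now Krtap19-5, -0.88), Krtap31-2 (-0.87), Krtap3-2 (-0.81), Krtap16-8 (now Krtap6-5, -0.76), Krtap13-1 (-0.74) and Krtap16-9 (now Krtap19-1, -0.63) were the other KAPs called lower per the authors' deposited table. Krtap10-4 was the closest to the threshold (adjusted p = 0.049 per the authors' deposited table).

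Of the 8 highest members with the scrambled siRNA, 6 were KAPs, and none of the 8 was called. A row of Krtap4-7 came first per the authors' deposited table, at 0.66 ± 0.34 with the scrambled siRNA (adjusted p = 0.125) and -0.12 with the Airn siRNA. The other row of Krtap4-7 stood at -0.23 ± 0.16 and -0.42 ± 0.16 per the authors' deposited table, so that the 2 rows of this gene differed in sign with the scrambled siRNA and were both below 0 with the Airn siRNA. In the average, the more precise row was called lower (-0.32 ± 0.11, adjusted p = 0.0216 in the test recovered from the authors' deposited table), a call that ended with centring, and the other was not (0.27 ± 0.24, adjusted p = 0.337). Krtap11-1 (0.26 and 0.11 with the scrambled and the Airn siRNA) and Krtap3-1 (0.26 and 0.07) were above 0 in both comparisons of the authors' deposited table. Krtap5-3 (0.21 and -0.25), Krtap5-5 (0.14 and -0.45) and Krtap1-3 (0.06 and -0.08) changed sign between the siRNAs per the authors' deposited table.

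By neighbourhood in the RefSeq annotation of GRCm38.p6, the KAP rows fell into 4 gene clusters, with 2 rows not placed because their symbols are ambiguous, each being the current symbol of one gene and a synonym of another. In the cluster from Krtap24-1 to Krtap11-1, which holds Krtap6-1, Krtap14 and Krtap15, 6 of 16 rows were called lower per the authors' deposited table, and the median was -0.64. Among the KAP genes between Krt40 and Krt33a, inside the type I keratin cluster, 4 of 16 rows were called lower per the authors' deposited table, and the median was -0.24. None of the 5 rows of the Krtap5 cluster was called with the scrambled siRNA per the authors' deposited table, none had an unadjusted p under 0.05, and their median was -0.07. The cluster with Krtap10 and Krtap12 genes had 1 of 3 rows lower per the authors' deposited table. In the order named, the shares lower in the 4 clusters were 37.5%, 25%, 0% and 33.3%, against 16.8% of all rows. The clusters were compared after their values were seen, and differences between them were not tested. KAP genes have near-identical relatives, so probes may read several of them. A further 18 rows carried several symbols with at least 1 keratin or KAP among them, and these are not members. None of the 18 was called with the scrambled siRNA per the authors' deposited table (6 had an unadjusted p under 0.05), and they ran from -0.80 to 0.50.

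**Figure D3:**
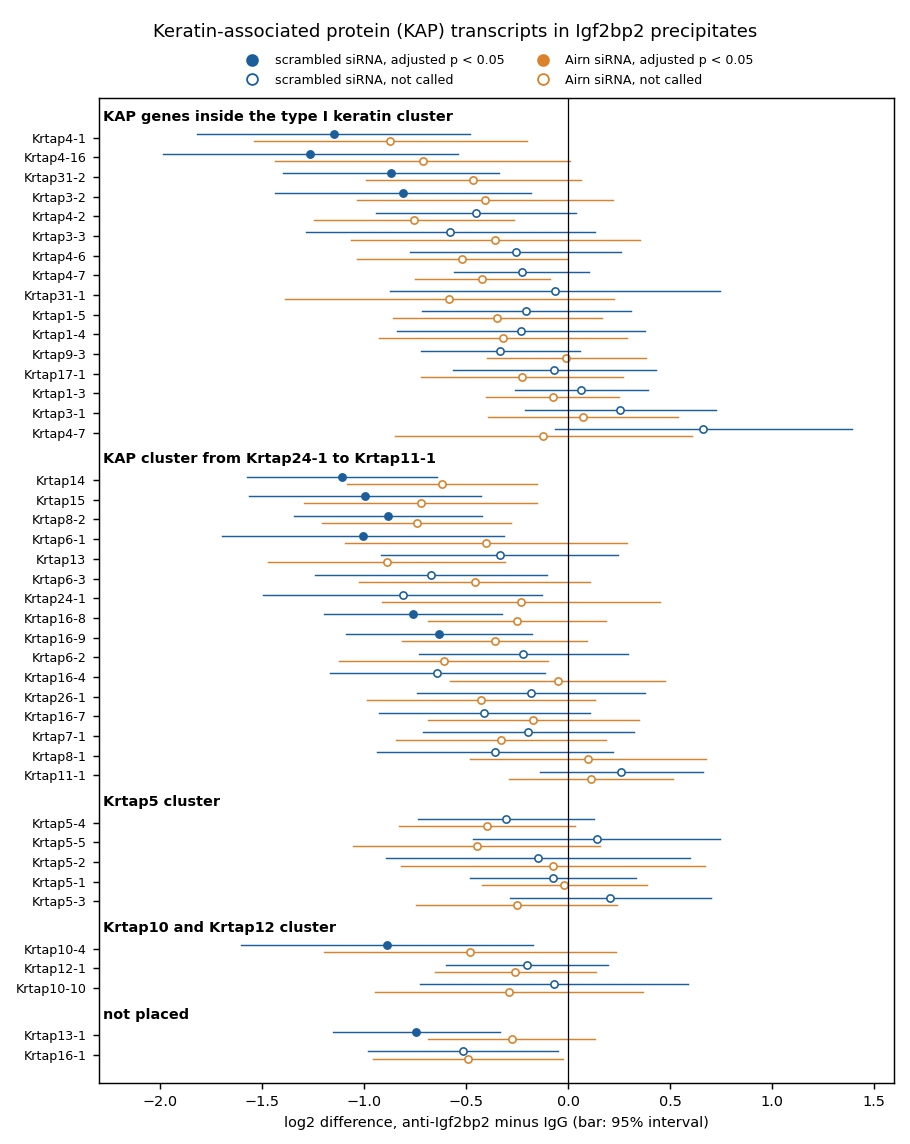
The 42 KAP rows by gene cluster, with axes, intervals and filled points as in the plot of keratin rows. The 5 rows of the Krtap5 cluster lie between -0.30 and 0.21 with the scrambled siRNA, while those from Krtap24-1 to Krtap11-1 reach -1.11.

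With the Airn siRNA, no keratin or KAP was called, and values lay below 0 in 84 of 90 rows, against 52.5% of all rows. The authors' deposited table called 0 of the 90 rows in either direction, while it called 0.63% of all rows higher and 0.425% lower, 1.05% in either direction. At an unadjusted p under 0.05 there were 28 rows lower and 1 higher (Krt18), against 15.9% and 17% of all rows (32.9% in either direction). The threshold was further away in this comparison: the largest p that was called was 0.00053 with the Airn siRNA and 0.0186 with the scrambled siRNA per the authors' deposited table. At the members' median SE, a call needed a difference of about 1.04 with the Airn siRNA and 0.63 with the scrambled siRNA. Lowest per the authors' deposited table were Krt28 (-0.91, adjusted p = 0.082), Krtap13 (-0.89, adjusted p = 0.0773), Krtap4-1 (-0.87, adjusted p = 0.0959) and Krt25 (-0.84, adjusted p = 0.0612). Krt25 had the smallest adjusted p of the members with this siRNA. The median of the 90 rows was -0.40.

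Values with both siRNAs were alike in sign, and no member was called in the change of enrichment. Of the 90 rows, 78 were below 0 with both siRNAs, 4 above 0 with both (Krt18, Krt79, Krtap11-1 and Krtap3-1) and 8 had opposite signs. Over all 35556 rows, 16720 were below 0 with both, 14484 above 0 with both and 4329 had opposite signs. Likeness in sign was thus common to most rows and not particular to the members. The comparisons share no arrays. Across the 90 rows, Pearson's r between them was 0.57 (0.861 across all rows with a single symbol), as a description over genes, which are not independent replicates and share probes. All 28 rows called lower with the scrambled siRNA were also below 0 with the Airn siRNA, each with a smaller size. They were picked for their low values with the scrambled siRNA, so this shrinkage was not read as a change. Over all 90 rows, 56 were nearer to 0 with the Airn siRNA, against 23768 of all 35556 rows.

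The change, taken as Airn siRNA minus scrambled siRNA, passed an adjusted p of 0.05 in 0 of 90 members and in 0% of all rows in the recovered test. At an unadjusted p under 0.05 there were 2 members, both higher, against 1.92% of all rows higher and 1.5% lower (3.42% in either direction). These were Krt84, a type II hair keratin, with a change of 0.80 ± 0.35 (interval 0.06 to 1.55), and Krt39 with 0.68 ± 0.31 (interval 0.01 to 1.34), each with an adjusted p of 0.998. Krt84 went from -0.82 with the scrambled siRNA to -0.01 with the Airn siRNA per the authors' deposited table. Krt6a (0.68 ± 0.46) and the less precise row of Krtap4-7 (-0.78 ± 0.49) had changes of like size with larger errors. Next by p were Krtap13-1 (0.47 ± 0.27), Krtap16-8 (0.51 ± 0.29) and Krtap16-4 (now Krtap19-4, 0.59 ± 0.35). For Krt18 the change was 0.25 ± 0.26, with an interval from -0.30 to 0.80. For Krt7, Krt8 and Krt19 the intervals ran from -1.02 to 0.60, from -0.88 to 1.42 and from -0.76 to 0.68. A difference between the siRNAs of the size of the enrichment values themselves was therefore within the error for these genes.

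**Figure D4:**
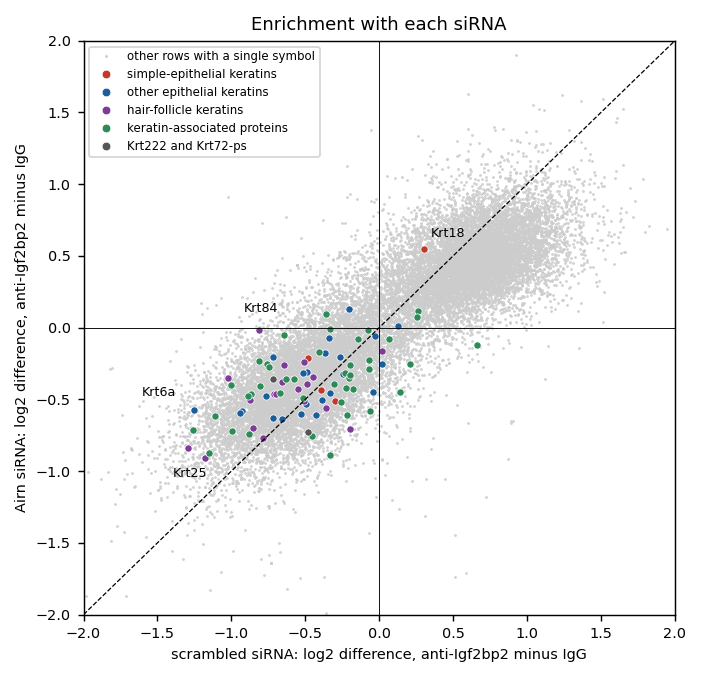
Log2 differences (anti-Igf2bp2 minus IgG) with the scrambled siRNA (x axis) and the Airn siRNA (y axis) for keratin and KAP rows by class, over the other rows with a single symbol in grey. The dashed line marks equal values, and both axes stop at -2 and 2, which leaves out 11 rows. Of the 90 members, 78 lie below 0 on both axes, and Krt18 lies among the rows above 0.

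More members were called in the average over both siRNAs, which has a smaller error. The recovered test called 49 of 90 rows lower and 1 higher, against 29% and 29.2% of all rows (58.2% in either direction). The 49 hold 27 of the 28 rows called lower with the scrambled siRNA, all but Krt84 (-0.41 ± 0.18, adjusted p = 0.0527 in the test recovered from the authors' deposited table). Krt25 had the lowest average of all members (-1.07 ± 0.16, adjusted p = 0.000941 in the test recovered from the authors' deposited table), Krt28 followed (-1.04 ± 0.21), and Krtap4-1 was the lowest KAP (-1.01 ± 0.22). By class, 14 of 19 hair-follicle keratins, 13 of 23 other epithelial keratins, 19 of 42 KAPs and 1 of 4 simple-epithelial keratins (Krt19) were lower. Krt36 had the highest average of the hair keratins, at -0.07 ± 0.17, and was not called.

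The other intermediate filaments had calls on both sides with the scrambled siRNA. Of 15 measured members of this list, the authors' deposited table put 4 higher and 6 lower, and the list's median was 0.07. These shares, 26.7% higher and 40% lower, stand beside 20.4% and 16.8% of all rows, so the share higher is not far from that of all rows. Those higher were lamin B1, Lmnb1 (0.93 ± 0.17, adjusted p = 0.0063), lamin A/C, Lmna (0.76), vimentin, Vim (0.69), and peripherin, Prph (0.54), per the authors' deposited table. The 6 lower were the neurofilament genes Nefl (-0.78), Nefm (-0.69) and Nefh (-0.43), the neuronal Ina (-0.80), the glial Gfap (-0.73) and the lens filament gene Bfsp2 (-0.60), per the authors' deposited table. Desmin, Des, the filament of heart muscle, stood at 0.41 ± 0.24 and was not called (adjusted p = 0.166) per the authors' deposited table. Centring each comparison on its median left the 4 calls higher and 1 of the 6 lower. With the scrambled siRNA, Lmnb1, Lmna and Vim had values above those of all 90 keratin and KAP rows. With the Airn siRNA Lmnb1 (0.71) and Prph (0.60) did, per the authors' deposited table. Krt18, the highest member there, stood at 0.55, Vim at 0.55 and Lmna at 0.36.

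Keratin and desmin filaments both attach to desmosomes. The list of desmosome and plakin genes also holds genes, such as Macf1 and Pnn, whose products are not core parts of the desmosome. This list had 4 of 22 members higher and 1 lower with the scrambled siRNA per the authors' deposited table, and the median was 0.21. These shares, 18.2% higher and 4.55% lower, stand beside 20.4% and 16.8% of all rows, so the share higher is near that of all rows. Higher were desmoglein 2, Dsg2 (0.75, adjusted p = 0.0444), plakoglobin, Jup (0.60, adjusted p = 0.0397), Macf1 (0.57) and Pnn (0.55), per the authors' deposited table. Plakophilin 2, Pkp2, of the cardiac desmosome (0.76, adjusted p = 0.0686), Pkp4 (0.67, adjusted p = 0.0619), plectin, Plec (0.44), and desmoplakin, Dsp (0.36), were not called per the authors' deposited table. The member called lower was Dsg4 (-0.71, adjusted p = 0.0336), a desmoglein of the hair follicle, per the authors' deposited table. Dsg2 is the desmoglein of heart muscle. With centring, 9 members of this list were called higher and 0 lower, with Pkp2 and Pkp4 among those higher and Dsg4 no longer called.

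Most measured genes of the epidermal, hair follicle and simple epithelium lists had values below 0 with the scrambled siRNA, and between 20% and 72.7% of a list were called lower, against 16.8% of all rows. Of 38 measured genes of the cornified envelope and epidermal differentiation, the authors' deposited table called 11 lower and none higher with the scrambled siRNA (1 had an unadjusted p under 0.05 on the higher side), with a median of -0.51. Its lowest members were Rptn (-1.003), Lce3b (-0.98), Lce1l (-0.92) and Lce3f (-0.90, not called) per the authors' deposited table. Hair follicle markers had 8 of 11 members lower per the authors' deposited table (5 with centring), and the median was -0.71. They were led, per the authors' deposited table, by Msx2 (-1.19), Tchh (-0.83), which encodes the inner root sheath protein trichohyalin, Dlx3 (-0.81) and Lef1 (-0.72). Tchh (-0.67, adjusted p = 0.0499) and Trps1 (-0.82, adjusted p = 0.0497) were also called lower with the Airn siRNA per the authors' deposited table. These were 2 of the 11 hair follicle markers, against 0.425% of all rows. Keratinocyte markers had 2 of 10 lower per the authors' deposited table, a share of 20% near that of all rows, loricrin, Lor (-0.77), and Krtdap (-0.84), while the desmosomal cadherins Dsc3 (-0.50) and Dsg3 (-0.47) were not called. Simple epithelium markers had 3 of 12 lower per the authors' deposited table, E-cadherin, Cdh1 (-0.77), Esrp2 (-0.67) and Cldn7 (-0.60), while Cldn3 (-0.61) was not called. Centring ended the calls of Esrp2, Dlx3 and Lce3b. The epithelial adhesion gene Epcam, named after its values were seen, went the other way, at 0.50 and 0.52 with the scrambled and the Airn siRNA per the authors' deposited table, not called with either. Its average of 0.51 ± 0.14 was called higher (adjusted p = 0.01 in the test recovered from the authors' deposited table). None of the hair follicle, keratinocyte or simple epithelium markers was called higher with the scrambled siRNA (1 simple epithelium marker had an unadjusted p under 0.05 on that side, and 1 was called higher with centring, as was 1 cornified envelope gene). The lists share genes, so their counts are not separate. Tchh, Lor, Krtdap, Ivl, Tgm1 and Tgm3 are in the cornified envelope list as well as a marker list, Dsc3, Dsg3 and Pkp1 are in the desmosome and the keratinocyte list, and Dsg4 is counted among the calls of both the desmosome and the hair follicle list. Among the atrial cardiomyocyte markers, 4 were highest with the scrambled siRNA per the authors' deposited table. They were phospholamban, Pln (0.91), cardiac actin, Actc1 (0.84), the atrial myosin light chain Myl4 (0.72) and cardiac troponin T, Tnnt2 (0.71). With the Airn siRNA Nppa was the highest (1.03, adjusted p = 0.0474), after 0.19 (not called) with the scrambled siRNA, per the authors' deposited table. Nppa and Myl4 (0.78) were the 2 of 11 markers called higher with the Airn siRNA, against 0.63% of all rows.

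A shift to the lower side is not particular to keratins and KAPs in these counts. Of 237 rows of vomeronasal, taste and trace-amine receptors, 97 (40.9%) were called lower with the scrambled siRNA per the authors' deposited table. Among these receptors 1 row (0.422%) was called higher, and the median was -0.73. Of 52 serpin protease inhibitor rows, 20 (38.5%) were called lower and 2 (3.85%) higher per the authors' deposited table, and the median was -0.72. These shares stand beside 31.1% lower and 0% higher for keratins and KAPs, and 16.8% lower and 20.4% higher for all rows. The keratin and KAP median of -0.48 lay between these medians and that of all rows. These differences between gene families were not tested.

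**Figure D5:**
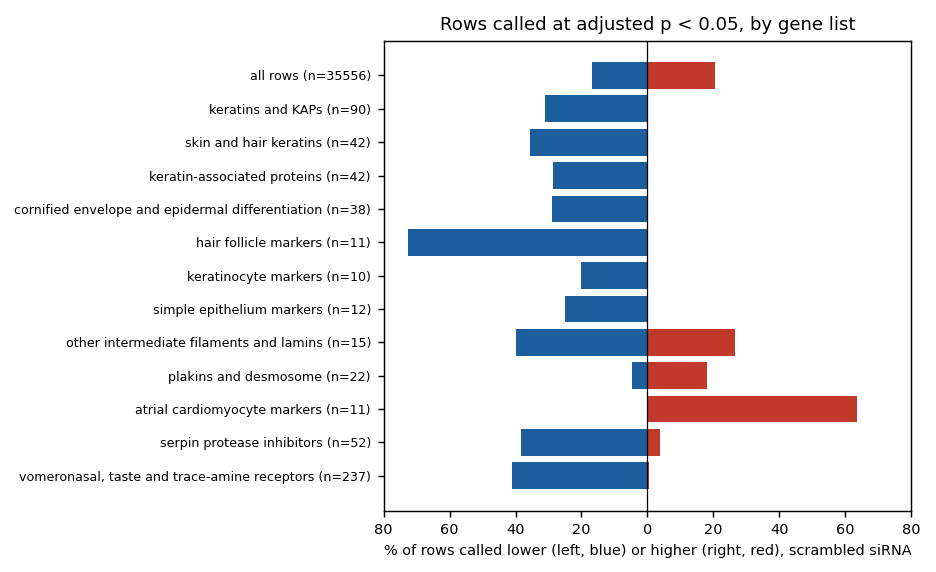
Share of rows called lower (left, blue) or higher (right, red) at an adjusted p under 0.05 with the scrambled siRNA per the authors' deposited table, for all rows and by gene list, in percent. Keratins and KAPs have calls only on the lower side (28 of 90), the atrial cardiomyocyte markers only on the higher side (7 of 11), and the other intermediate filaments on both. The bar labelled skin and hair keratins holds the other epithelial and the hair-follicle keratins, among them keratins of the mouth.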

How the data were processed

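Total RNA from anti-Igf2bp2 and IgG precipitates was labelled as biotinylated cRNA and put on Affymetrix arrays, according to the labels' protocols. Per the file headers, the authors deposited log2 differences with p-values and adjusted p-values for 2 comparisons. That the scale is log2 was not tested on intensities. Software, genome build, normalization and filters are each not given in the sources used here; all bear on the values. In place of a fit to arrays, standard errors were worked back from the deposited differences and p-values, with 16.14 degrees of freedom, the value at which both comparisons gave the same error (median disagreement 0.0582% over 23587 rows with p from 0.001 to 0.5). Average and change were tested with these errors, taken as independent, with Benjamini-Hochberg adjustment over all 35556 rows (Python 3.11.15, SciPy 1.17.1). The recovery was tested on simulated data. The number of arrays limits the precision, and each p-value sets a difference against an error estimated from these arrays only.

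Members and lists were chosen with earlier results of these data known. Named were the 4 simple-epithelial keratins, the 8 highest and 8 lowest members with the scrambled siRNA, the extremes of each class and of the change, genes with rows of opposite sign, 4 genes per list, and Vim, Des, Lmna, Plec, Dsp and Jup. Every member called with the scrambled siRNA, and others singled out, were added after their values were seen. Genes of lists with several rows were represented by the row with the smallest error. Of the 90 rows, 81 matched a current RefSeq symbol of GRCm38.p6, 6 a synonym, and 3 (Krt86, Krtap13-1 and Krtap16-1) were ambiguous. Alternatives covered centring, adjustment, thresholds, degrees of freedom and error correlation.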

Additional observations from a re-analysis of the deposited data

How the results depend on the processing

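No paired analysis was possible because the deposited table holds comparisons and not arrays, and for the same reason no replicate was left out. With the scrambled siRNA, the 28 members called lower became 22 with each comparison centred on its median over all rows, 27 with a minimum difference of 0.5, between 30 and 31 with the adjustment limited to rows with symbols or without the unnamed leading rows (the last chosen after seeing the data), and 39 at an adjusted p under 0.1. None was called higher in any of these. With the Airn siRNA, an adjusted p under 0.1 called 14 members lower and 1 higher in place of 0 and 0, because the threshold is looser. In the average, the 49 lower became 38 with centring, 36 with the minimum difference, 39 with an error correlation of 0.3 and 59 with -0.3, and the 1 higher (Krt18, 0.43) became 0 with the minimum difference, which it does not reach. No member was called in the change under any alternative run. The medians that centring subtracts were -0.10 (scrambled siRNA) and -0.06 (Airn siRNA). The average of Krt19 lost its call with centring and with an error correlation of 0.3, and that of Krt84 was called with the adjustment limited to rows with symbols. The number of arrays and unknown signal over background limit all values.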
